A study of Mus musculus with 19 samples.

Results

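The clock output factors are 10 genes (Dbp, Tef, Hlf, Nfil3, Ciart, Nr1d1, Nr1d2, Bhlhe40, Bhlhe41 and Rora) that encode transcriptional regulators controlled by the circadian clock. They were taken by symbol, with mouse Ensembl identifiers mapped to names, from the 39179 genes of the count tables, and each of the 10 matched 1 identifier. All 10 were measured in every library, with between 42 reads (Nfil3) and 8300 reads (Tef), and all 10 passed the filter on low counts in every comparison.

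In mammals the heterodimer of BMAL1 (encoded by Arntl) and CLOCK binds E-boxes and drives the Per and Cry genes, whose proteins then inhibit it. The same E-boxes drive part of a second layer of regulators. DBP, TEF and HLF are proline- and acid-rich basic leucine zipper activators that bind D-boxes, and NFIL3 is the repressor that competes with them for those sites. NR1D1 and NR1D2 (REV-ERBα and REV-ERBβ) repress genes that carry a ROR response element, Arntl among them, and RORA activates the same element. CIART (CHRONO) and the E-box binding repressors BHLHE40 (DEC1) and BHLHE41 (DEC2) act against BMAL1 and CLOCK. Vascular cells, including endothelium, have a clock of this kind, and the transcripts of Dbp, Ciart and Nr1d1 are among the most strongly daily-cycling ones in many mouse tissues.

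Polyadenylated RNA of brain microvessels (labelled cerebral microvessel) was sequenced from male C57BL/6 mice that were bought from Jackson Laboratories when 7 weeks old and kept under a light cycle of 12 h, the lights coming on at 0700. Nic-free (4 libraries) had a nicotine-free electronic cigarette exposure, Nic (3 libraries) an electronic cigarette exposure with nicotine, and Room-air (4 libraries) room air. Smoke (4 libraries) had a smoke exposure, and air (4 libraries) was a further set labelled as room air. The control of each exposure was read from the titles alone (Room-air for Nic-free and Nic, air for smoke), since no label ties a control to an exposure. Duration of exposure, age at collection, batch and litter are not given in the sources used here. Nor is the clock time of collection, and for genes that cycle over the day its part in any difference was not tested. Nothing says that the libraries of a group came from separate animals, so the p-values measure the spread between these libraries, which may be partly technical.

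Total gene counts per library, in units of 1000000, ran from 15.2 to 19.1 in Nic-free, 21.8 to 28.4 in Nic, 25.3 to 30.2 in Room-air, 7.94 to 12.6 in smoke and 9.76 to 13.5 in air. The share that fell in no gene was taken of the reads in a gene, in no gene or ambiguous between genes. It was 42.1 ± 2.58% in Nic-free, 36.4 ± 2.98% in Nic and 30.7 ± 2.27% in Room-air (SD). It was 30.8 ± 1.84% in smoke and 35.4 ± 1.63% in air (SD). None of the 10 endothelial and 8 pericyte or smooth muscle markers was at 0 in any library, the lowest single value of an endothelial marker being 30.6 CPM (counts per 1000000 gene counts). Markers of neurons, astrocytes, oligodendrocytes, microglia and choroid plexus were also above 0 in every library, and the 6 choroid plexus markers summed to as little as 856 CPM in 1 Nic-free library and as much as 26520 CPM in 1 smoke library. In such bulk samples fewer cells of a type and less RNA per cell cannot be told apart.

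The 250 bases before the start of transcription (RefSeq, GRCm38.p6) were available for 9 of the 10 members and were read for 4 clock motifs on both strands. The E-box is CACGTG, which reads alike on both strands, and was in 6.02% of 32851 such windows of all genes. The E′-box, CACGTT, was in 3.85% of windows. The D-box is TTATGTAA or TTACGTAA, in 0.931%, and the ROR response element is AANT, then A or G, then GGTCA, in 0.35%. An E′-box and a D-box can share their end bases, but no match named here overlapped another. Ciart held 3 E-boxes, at 116, 58 and 44 bases before its start, and only 20 of the 32851 windows (0.0609%) held 3 or more. Tef held 1 E-box in each of its 2 windows, Bhlhe41 held 1, and Nr1d1 held 1 E′-box at 28 bases before its start. The windows of Dbp, Hlf, Nfil3, Nr1d2 and Rora held none of the 4 motifs. No member's window held a D-box or ROR response element, and a window without these letters says nothing of the factor. Of the core clock genes, which are set beside the members in the results, Per3 held 2 D-boxes, and 7 of the 32851 windows (0.0213%) held 2 or more. Per1 held 1 E-box in its first window, Cry1 held 1 E-box and 1 E′-box, and Cry2 held 1 E′-box. Per2 had no window, and those of the remaining core clock genes held none of the 4 motifs. Windows are shown for the members with an E-box or E′-box, and for Per3 as the gene with D-boxes. Whether its D-boxes have a part in its values was not tested. Each is written 5′ to 3′ on the gene's own strand and ends at the base before the start, with the motif matches in capitals. A match is a description of the letters, not evidence of binding.
Ciart (chr3:95882229-95882478, minus strand): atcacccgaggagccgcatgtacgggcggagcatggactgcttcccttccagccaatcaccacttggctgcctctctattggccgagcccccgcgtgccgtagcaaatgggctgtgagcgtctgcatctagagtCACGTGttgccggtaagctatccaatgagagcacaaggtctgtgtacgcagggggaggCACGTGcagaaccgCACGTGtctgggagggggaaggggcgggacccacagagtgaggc
Nr1d1 (chr11:98775378-98775627, minus strand): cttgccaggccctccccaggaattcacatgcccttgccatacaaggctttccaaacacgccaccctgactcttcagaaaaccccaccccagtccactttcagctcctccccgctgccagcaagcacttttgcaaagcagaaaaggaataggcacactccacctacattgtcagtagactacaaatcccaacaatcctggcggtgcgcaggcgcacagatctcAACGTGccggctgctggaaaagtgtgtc
Bhlhe41 (chr6:145865421-145865670, minus strand): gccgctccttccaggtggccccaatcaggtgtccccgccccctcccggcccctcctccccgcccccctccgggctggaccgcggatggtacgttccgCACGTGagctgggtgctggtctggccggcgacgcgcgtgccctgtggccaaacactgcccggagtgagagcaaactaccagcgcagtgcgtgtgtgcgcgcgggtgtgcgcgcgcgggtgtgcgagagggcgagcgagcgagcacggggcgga
Tef, first window (chr15:81802423-81802672, plus strand): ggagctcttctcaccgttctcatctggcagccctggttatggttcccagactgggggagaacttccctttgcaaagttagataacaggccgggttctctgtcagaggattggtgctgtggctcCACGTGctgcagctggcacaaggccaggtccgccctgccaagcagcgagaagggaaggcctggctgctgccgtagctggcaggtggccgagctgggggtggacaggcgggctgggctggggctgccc
Per3 (chr4:151044666-151044915, minus strand): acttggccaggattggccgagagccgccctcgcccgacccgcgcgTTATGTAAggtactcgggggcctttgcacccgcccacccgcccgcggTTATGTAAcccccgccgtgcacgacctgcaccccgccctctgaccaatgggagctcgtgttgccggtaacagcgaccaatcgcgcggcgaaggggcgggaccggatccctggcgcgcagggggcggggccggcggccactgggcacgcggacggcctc

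Levels were compared between genes as CPM per kilobase of exon. By the median over the 19 libraries Tef was highest (36.6 CPM per kb, range 31.6 to 49.1), followed by Dbp (29.9, range 21.3 to 60.0), Nr1d1 (28.9, range 17.5 to 38.0) and Nr1d2 (21.1, range 17.8 to 30.8). Hlf (16.1), Bhlhe40 (12.3), Bhlhe41 (8.94), Ciart (6.84), Rora (5.20) and Nfil3 (4.34) followed. Ranges of neighbours in this order overlapped throughout. The members also differed in how far they varied. Between the lowest and the highest library Ciart spanned 3.20-fold and Dbp 2.82-fold in CPM, both with their highest value in a smoke library, whereas Tef spanned 1.55-fold and Hlf 1.68-fold.

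**Figure D1:**
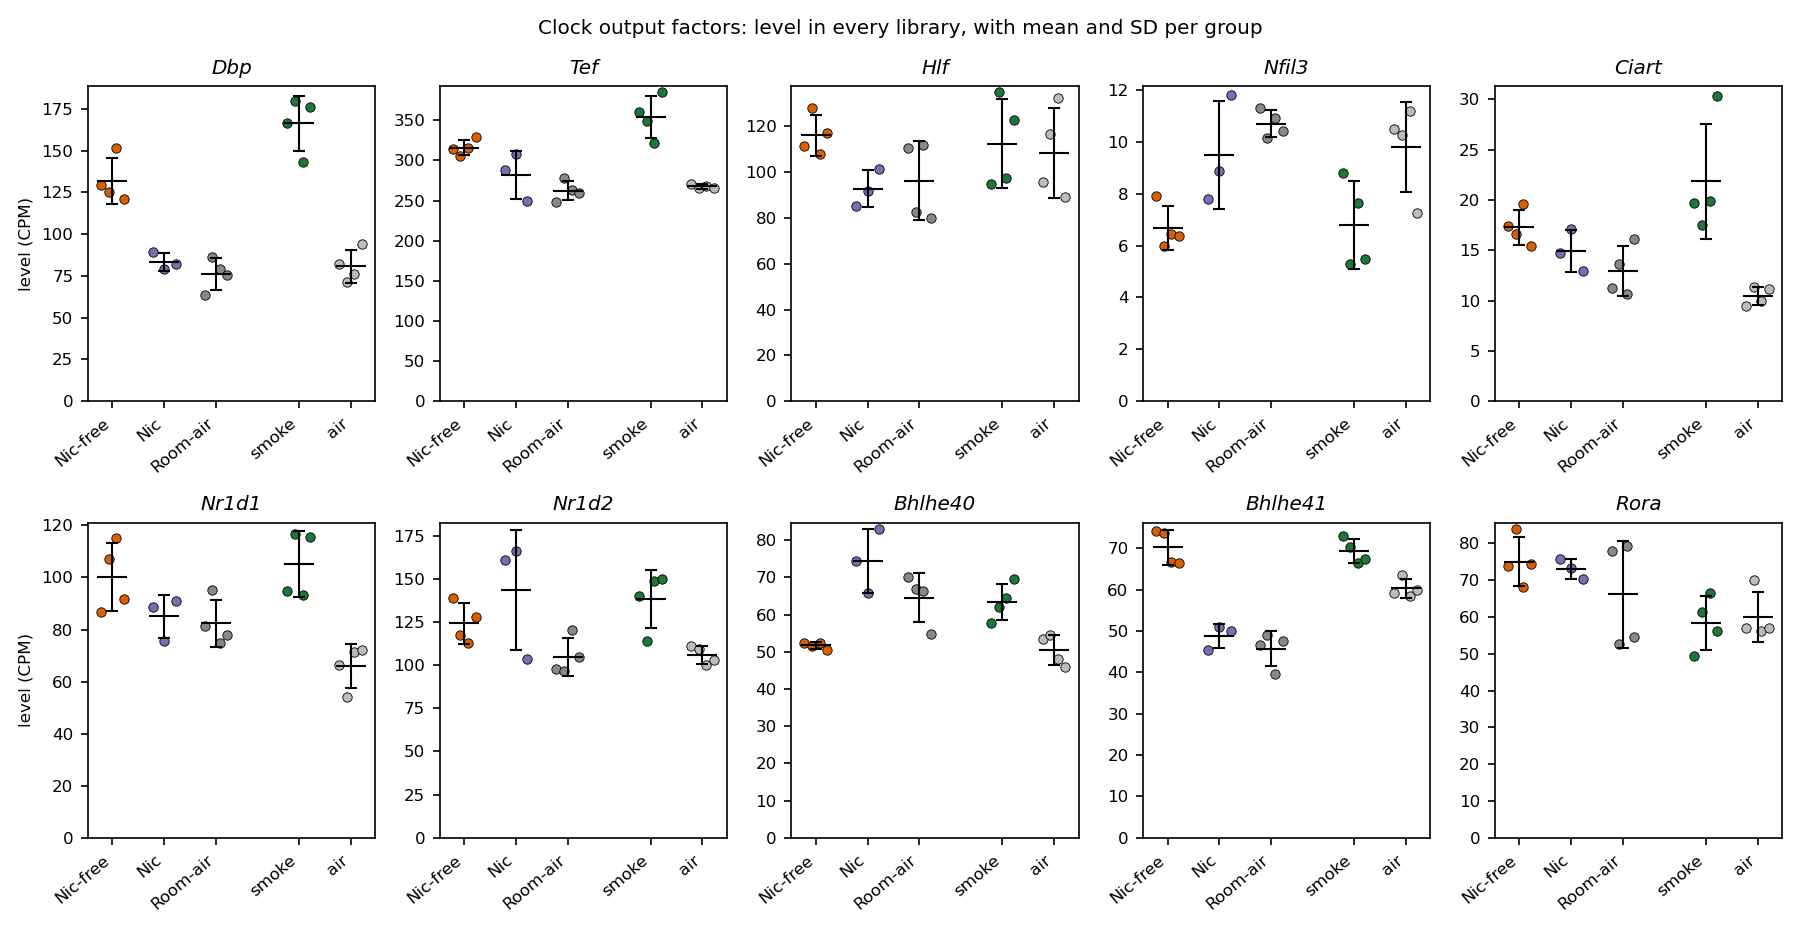
Level of each clock output factor in CPM (linear axis) in each of the 19 libraries, by group; points are libraries, bars the group mean and SD. Dbp stands at 121 to 152 CPM in Nic-free and 143 to 180 CPM in smoke, above every Nic, Room-air and air library.

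In vessels of the Nic-free group 5 members rose against Room-air (Dbp, Tef, Ciart, Nr1d1 and Bhlhe41), Nfil3 and Bhlhe40 fell, and Hlf, Nr1d2 and Rora did not pass. So 7 of 10 were called, where 21.8% of all 17235 genes tested were (11.3% higher and 10.4% lower; edgeR quasi-likelihood test, Benjamini-Hochberg adjusted p under 0.05). The median log2 fold change was 0.32 over the members and 0.00 over all genes. Group means are given ± SD over libraries and log2 fold changes ± SE. The largest positive change among the members was that of Dbp (ENSMUSG00000059824, chromosome 7, 45705088 to 45710203, plus strand, GRCm38). It was read at 129, 126, 152 and 121 CPM in Nic-free, against 63.8, 86.3, 79.4 and 75.7 CPM in Room-air. Every Nic-free library lay above every Room-air library, and the log2 fold change was 0.84 ± 0.10 (adjusted p = 0.000312). Dbp passed in each of the 8 fits that left out 1 library, with log2 fold changes of 0.76 to 0.90. The annotation places 539 bases of Dbp exon opposite an exon of Sphk2, whose own log2 fold change was -0.28 ± 0.11 (adjusted p = 0.0762).

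The related activator Tef stood at 315, 305, 316 and 329 CPM in Nic-free, against 248, 278, 264 and 259.6 CPM in Room-air. The groups did not overlap, and the log2 fold change was 0.32 ± 0.08 (adjusted p = 0.0173). Without Nic-free replicate 4 the edgeR adjusted p was 0.0529. Hlf, the third of these activators, overlapped between groups at 116 ± 8.92 CPM in Nic-free and 96.3 ± 17.2 CPM in Room-air, a log2 fold change of 0.32 ± 0.12 (adjusted p = 0.0581). Of the 4 Room-air libraries, 2 (replicates 1 and 3) were within the Nic-free range, and without either of them Hlf passed (adjusted p = 0.0384 and 0.0386). Nfil3, the D-box repressor, moved the other way, with 7.89, 5.99, 6.43 and 6.38 CPM in Nic-free, against 11.3, 10.2, 10.9 and 10.4 CPM in Room-air. No Nic-free library reached the lowest Room-air library, and Nfil3 fell by 0.63 on the log2 scale (SE 0.14, adjusted p = 0.00663); it passed in all 8 fits that left out 1 library.

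Among the repressors of BMAL1 and CLOCK, the 2 DEC genes moved in opposite directions. Bhlhe41 was read at 74.2, 73.8, 66.8 and 66.5 CPM in Nic-free, against 46.7, 49.0, 39.7 and 47.7 CPM in Room-air. The groups were far apart and the log2 fold change was 0.67 ± 0.09 (adjusted p = 0.000522). The annotation places 1280 bases of Bhlhe41 exon opposite Gm43909, which is not among the counted genes. Reads of that stretch cannot be assigned with certainty. Bhlhe40 was read at 52.4, 51.6, 52.4 and 50.4 CPM in Nic-free, against 70.0, 66.8, 66.3 and 54.9 CPM in Room-air, and fell by 0.27 on the log2 scale (SE 0.09, adjusted p = 0.0489). Its groups also did not overlap, but it passed in only 1 of the 8 fits that left out 1 library, that without Room-air replicate 4 (adjusted p up to 0.122 otherwise, without Nic-free replicate 4). Ciart (ENSMUSG00000038550, chromosome 3, 95878503 to 95882251, minus strand), whose window with 3 E-boxes is shown above, had 17.4, 16.6, 19.6 and 15.5 CPM in Nic-free, against 11.2, 13.6, 10.7 and 16.2 CPM in Room-air. Room-air replicate 4 lay inside the Nic-free range, and the log2 fold change was 0.47 ± 0.14 (adjusted p = 0.0316). It passed in 2 of the 8 fits, those without Room-air replicate 4 and without Nic-free replicate 4, and otherwise had adjusted p up to 0.0901.

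Of the nuclear receptors, Nr1d1 (ENSMUSG00000020889, chromosome 11, 98767932 to 98775333, minus strand) had 86.8, 107, 115 and 91.9 CPM in Nic-free, against 81.3, 95.2, 74.9 and 77.9 CPM in Room-air. The groups overlapped, since Room-air replicate 2 exceeded 2 of the Nic-free libraries. The log2 fold change was 0.33 ± 0.11 (adjusted p = 0.0415), and it passed in 3 of the 8 fits that left out 1 library. It did not pass without Room-air replicates 1, 3 or 4 or Nic-free replicates 2 or 3, with adjusted p up to 0.123. Over 263 bases its exons lie opposite an exon of Thra. That gene also rose, by 0.45 ± 0.10 (adjusted p = 0.00626, edgeR). How strand was handled in counting is not given in the sources used here, so reads of that stretch cannot be assigned to one gene with certainty. Nr1d2 was 124 ± 11.7 CPM in Nic-free and 105 ± 10.97 CPM in Room-air, a log2 fold change of 0.30 ± 0.13 (adjusted p = 0.126). Rora was 75.0 ± 6.59 CPM in Nic-free and 66.1 ± 14.4 CPM in Room-air, a log2 fold change of 0.24 ± 0.13 (adjusted p = 0.194).

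Of the 9 core clock genes, none rose and 4 fell in Nic-free. Arntl, which encodes BMAL1, had 35.5, 34.0, 31.9 and 35.3 CPM in Nic-free, against 44.9, 45.1, 42.8 and 43.9 CPM in Room-air, with no overlap, a log2 fold change of -0.32 ± 0.07 (adjusted p = 0.00813). Clock fell by 0.41 (adjusted p = 0.00972), Per1 by 0.42 (adjusted p = 0.0172) and Per2 by 0.56 (adjusted p = 0.00559) on the log2 scale. Per1 did not pass without Room-air replicate 4 or Nic-free replicates 2 or 4 (adjusted p up to 0.0576). Dbp, Tef and Ciart, which like Per1 and Per2 are targets of BMAL1 and CLOCK, thus rose where Per1 and Per2 fell. Set against the air libraries in place of Room-air, Clock (-0.17, adjusted p = 0.398) and Per2 (-0.09, adjusted p = 0.734) did not pass and Per1 had the opposite sign (0.61, adjusted p = 0.00596). Per3 (0.18 ± 0.11, adjusted p = 0.275), Cry1 (-0.11 ± 0.14, adjusted p = 0.617), Cry2 (0.06 ± 0.08, adjusted p = 0.62), Npas2 (0.00 ± 0.09, adjusted p = 0.989) and Arntl2 (0.24 ± 0.15, adjusted p = 0.28) did not pass. Of 9 kinases, ubiquitin ligases and related enzymes of clock proteins, 1 rose: Usp2, a ubiquitin-specific protease, 0.48 ± 0.11 (adjusted p = 0.00896). Among partners of the ROR and REV-ERB receptors, Rorb rose by 0.43 ± 0.09 (adjusted p = 0.00463) and the corepressor gene Ncor1 by 0.38 ± 0.09 (adjusted p = 0.00912). Ncor1 passed in all 14 alternatives and Rorb in 13, with log2 fold changes of Rorb down to 0.10 and adjusted p up to 0.684. Of 8 genes with daily rhythms in many tissues, Usp2 rose and 3 fell: Tsc22d3, -1.24 ± 0.14 (adjusted p = 0.000201), the cell cycle kinase gene Wee1, -0.79 ± 0.16 (adjusted p = 0.00397), and Cdkn1a, which encodes p21, -2.10 ± 0.10 (adjusted p = 6.21e-08). Tsc22d3 and Cdkn1a are glucocorticoid-induced genes as well.

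Marker lists moved in the same comparison. Oligodendrocyte markers summed to 18601 to 20380 CPM in Nic-free, against 12558 to 15182 CPM in Room-air, and 4 of the 6 rose. Neuron markers summed to 4094 to 4873 CPM in Nic-free, against 2957 to 3502 CPM in Room-air, with 5 of 8 higher. Astrocyte markers (3 of 6) and microglia markers (4 of 6) were called higher too, and 4 of 10 endothelial markers and 1 of 8 pericyte or smooth muscle markers lower. Of 15 genes of a glucocorticoid list, the receptor gene Nr3c1 and genes that glucocorticoids induce, 9 fell and 1 rose. Of 12 immediate early genes 5 rose. Choroid plexus markers summed to 856 to 18357 CPM in Nic-free (mean 7769 ± 7560, SD, n = 4), against 17440 to 24722 CPM in Room-air (20905 ± 3264, n = 4). These ranges overlapped in the highest Nic-free library, the median log2 fold change of the 6 markers was -1.54, and none of them passed. The part of these shifts, and of the higher share of reads outside genes in Nic-free, in the members' changes was not tested.

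In the Nic group, compared with the same Room-air libraries, no member was called (0 of 10, where 3.89% of 17235 genes were, 1.22% higher and 2.67% lower). By unadjusted p under 0.05 the count was 1, Nr1d2, and DESeq2 called 0. Dbp had 89.5, 79.2 and 82.0 CPM in Nic, with 1 library above and 2 inside the Room-air range of 63.8 to 86.3 CPM, with a log2 fold change of 0.11 ± 0.11 (adjusted p = 0.589). Ciart, at 14.9 ± 2.09 CPM in Nic and 12.9 ± 2.51 CPM in Room-air (0.18 ± 0.15, adjusted p = 0.491), and Nr1d1, at 85.1 ± 8.30 CPM in Nic and 82.3 ± 8.98 CPM in Room-air (0.02 ± 0.12, adjusted p = 0.927), also overlapped between groups. Nr1d2 had 161, 166 and 104 CPM in Nic, against 97.7, 96.4, 120.3 and 105 CPM in Room-air. Nic replicates 1 and 2 stood above all Room-air libraries and Nic replicate 3 among them; the log2 fold change was 0.43 ± 0.14 (adjusted p = 0.0887), and without Nic replicate 3 it was 0.62 (adjusted p = 0.00489), when 2956 genes in all were called in place of 670. The other members had log2 fold changes of -0.19 ± 0.15 (Nfil3) to 0.18 ± 0.10 (Bhlhe40). In the core clock Arntl alone passed, 0.30 ± 0.08 (adjusted p = 0.0478), with 55.7, 57.2 and 52.8 CPM in Nic, above every Room-air library; it passed in 1 of the 7 fits that left out 1 library, that without Nic replicate 3, with adjusted p up to 0.225 otherwise. Nampt, the enzyme of NAD salvage, was the only gene called in the 3 further clock lists, 0.43 ± 0.09 (adjusted p = 0.0277). Of the marker lists, 2 of 15 genes of the glucocorticoid list and 1 of 6 astrocyte markers were lower in Nic. Higher in Nic were 1 of 8 pericyte or smooth muscle markers and 1 of 12 immediate early genes. Choroid plexus markers summed to 2053 to 7029 CPM in Nic, against 17440 to 24722 CPM in Room-air, with no overlap; their median log2 fold change was -1.99 and none of the 6 passed. The part of these lists in the members' values was not tested.

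The direct comparison of Nic with Nic-free asked whether the vapours with and without nicotine differed. It shares the Nic-free libraries with the first comparison. Dbp, Hlf and Bhlhe41 were lower in Nic and Nfil3 and Bhlhe40 higher, 5 of 10 members where 24.8% of 17235 genes were called (12.4% in each direction). Dbp averaged 83.6 ± 5.35 CPM in Nic and 132 ± 13.7 CPM in Nic-free (n = 3 and 4), with no overlap, a log2 fold change of -0.73 ± 0.11 (adjusted p = 0.000689). Bhlhe41 was 48.9 ± 2.97 CPM in Nic and 70.3 ± 4.22 CPM in Nic-free, a log2 fold change of -0.60 ± 0.10 (adjusted p = 0.00111), and Bhlhe40 was 74.4 ± 8.52 CPM in Nic and 51.7 ± 0.945 CPM in Nic-free, a log2 fold change of 0.45 ± 0.10 (adjusted p = 0.00463); neither overlapped between groups. These 3 passed in all 7 fits that left out 1 library. Hlf, -0.40 ± 0.13 (adjusted p = 0.0325), passed in 3 of those fits, without Nic-free replicates 1 or 3 or Nic replicate 3 (adjusted p up to 0.157 otherwise), and Nfil3, 0.44 ± 0.15 (adjusted p = 0.0438), in 2, without Nic-free replicate 1 or Nic replicate 1 (adjusted p up to 0.216 otherwise). Tef (-0.24 ± 0.09, adjusted p = 0.0722), Nr1d1 (-0.31 ± 0.12, adjusted p = 0.0698), Ciart (-0.28 ± 0.15, adjusted p = 0.195), Nr1d2 (0.14 ± 0.14, adjusted p = 0.517) and Rora (-0.11 ± 0.14, adjusted p = 0.589) did not pass. Leaving out 1 library brought 3 of these 5 past the threshold, Tef without Nic replicate 2 (adjusted p = 0.0407), Nr1d1 without Nic-free replicate 1 and Nr1d2 without Nic replicate 3 (adjusted p = 0.0458 each). In the core clock 4 of 9 genes were higher in Nic and none lower: Arntl (0.62 ± 0.08, adjusted p = 0.000287), Clock (0.51 ± 0.10, adjusted p = 0.0033), Per1 (0.41 ± 0.12, adjusted p = 0.0225) and Per2 (0.87 ± 0.13, adjusted p = 0.0006). Per1 did not pass without Nic-free replicates 2, 3 or 4 or Nic replicate 2 (adjusted p up to 0.0653). Of the further clock lists, Csnk1a1, Tsc22d3, Wee1 and Cdkn1a were higher in Nic, the last by 1.76 ± 0.11, and Usp2 (-0.52 ± 0.12) and Rorb (-0.37 ± 0.10) lower. Wee1 passed in 3 of 12 alternatives and in none of the 7 that left out 1 library (adjusted p up to 0.13). Oligodendrocyte markers (5 of 6 lower in Nic), neuron markers (4 of 8 lower) and endothelial markers (6 of 10 higher) moved as well. So did astrocyte markers (4 of 6 lower), microglia markers (2 of 6 lower) and pericyte or smooth muscle markers (4 of 8 higher). Of the 15 genes of the glucocorticoid list 5 were higher and 2 lower, and 1 of 12 immediate early genes was lower. The part of these lists in the members' differences was not tested.

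In vessels of smoke-exposed mice Dbp, Ciart, Nr1d1 and Nr1d2 rose against air and no member fell. These 4 of 10 members stand beside 1.6% of all 15232 genes tested (1.08% higher and 0.519% lower; edgeR), and the median log2 fold change was 0.38 over the members and 0.02 over all genes. Dbp had 167, 179.6, 143 and 176 CPM in smoke, against 81.9, 71.4, 75.9 and 94.1 CPM in air. Each smoke library exceeded each air library by a wide margin, and the log2 fold change was 1.06 ± 0.12 (adjusted p = 0.00779). Ciart had 19.7, 17.5, 19.9 and 30.3 CPM in smoke, against 9.48, 11.4, 9.93 and 11.1 CPM in air. Smoke replicate 4 was well above the others of its group, all 4 smoke libraries were above all air libraries, and the log2 fold change was 1.08 ± 0.16 (adjusted p = 0.0241). Nr1d1 had 94.9, 117, 93.3 and 115 CPM in smoke, against 66.4, 54.0, 71.4 and 72.2 CPM in air, again without overlap, a log2 fold change of 0.69 ± 0.13 (adjusted p = 0.0386). For Nr1d2 the values were 140.4, 114, 149 and 150.2 CPM in smoke, against 111, 109.5, 99.997 and 103 CPM in air. By CPM smoke replicate 2 was only just above the air set. Unlike the log2 fold changes, CPM values carry no TMM scaling, and that library had the lowest TMM factor in the fit of all 19 libraries (0.916). The log2 fold change of Nr1d2 was 0.40 ± 0.09 (adjusted p = 0.0479).

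These calls depended on single libraries. Without smoke replicate 1, a single gene was called of all those tested and none of the 10 members, although Dbp had the same log2 fold change of 1.06 (adjusted p = 0.0601). Dbp passed in the other 7 fits that left out 1 library, Ciart in 4 of 8 (not without air replicates 2, 3 or 4 or smoke replicate 1, with adjusted p up to 0.0886), and Nr1d1 and Nr1d2 in 1 each, those without smoke replicate 3 and smoke replicate 2 (adjusted p up to 0.0971 and 0.15). With all 19 libraries in 1 fit the adjusted p was 0.000163 for Dbp, 0.00262 for Ciart and 0.00998 for Nr1d1, and 0.0657 for Nr1d2.

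The other members of the smoke comparison did not pass in the fit of the 8 smoke and air libraries. Tef stood at 359.9, 349, 322 and 386 CPM in smoke, against 271, 266, 269 and 265 CPM in air, which did not overlap, a log2 fold change of 0.43 ± 0.10 (adjusted p = 0.0506); it passed in 5 of 14 alternatives, among them that without smoke replicate 3 (adjusted p = 0.0467). Bhlhe40 at 63.4 ± 4.88 CPM in smoke and 50.5 ± 4.06 CPM in air (0.35 ± 0.09, adjusted p = 0.073) and Bhlhe41 at 69.4 ± 2.98 CPM in smoke and 60.3 ± 2.28 CPM in air (0.22 ± 0.08, adjusted p = 0.169) also had every smoke library above every air library. With all 19 libraries in 1 fit Tef (0.42, adjusted p = 0.0137) and Bhlhe40 (0.34, adjusted p = 0.0495) passed, and Bhlhe40 passed in 2 of 14 alternatives. Nfil3 was 6.79 ± 1.70 CPM in smoke and 9.80 ± 1.74 CPM in air, with overlap, a log2 fold change of -0.51 ± 0.19 (adjusted p = 0.169). Hlf (0.07 ± 0.17, adjusted p = 0.844) and Rora (-0.02 ± 0.12, adjusted p = 0.949) had the smallest differences, each less than its standard error. Of the core clock, 3 genes rose and 1 fell. Per1 had 142, 121, 134 and 138 CPM in smoke, against 66.1, 89.8, 64.4 and 62.5 CPM in air, a log2 fold change of 0.94 ± 0.11 (adjusted p = 0.0101), with no overlap. Per2 rose by 0.78 ± 0.13 (adjusted p = 0.0303) and Per3, the gene with the 2 D-boxes shown above, by 0.56 ± 0.11 (adjusted p = 0.0407). Arntl fell, with 37.8, 35.3, 38.5 and 36.0 CPM in smoke, against 57.1, 60.4, 46.4 and 50.6 CPM in air, a log2 fold change of -0.52 ± 0.09 (adjusted p = 0.0386). With 1 library left out, Per1 did not pass in 2 of 8 fits, without air replicate 3 or smoke replicate 1 (adjusted p up to 0.0601), Per2 in 4 (up to 0.0959), Per3 in 7 (up to 0.122) and Arntl in 5 (up to 0.0946). Cry2 (0.37 ± 0.09, adjusted p = 0.0536), Cry1 (0.27 ± 0.11, adjusted p = 0.218), Npas2 (-0.32 ± 0.10, adjusted p = 0.109), Clock (-0.07 ± 0.12, adjusted p = 0.79) and Arntl2 (-0.04 ± 0.17, adjusted p = 0.927) did not pass. Of the further clock lists, none of the 9 enzymes and none of the 5 receptor partners passed, and of the 8 widely rhythmic genes only Tspan4 did, 1.11 ± 0.14 (adjusted p = 0.0101). Endothelial markers summed to 1857 to 2501 CPM in smoke, against 1035 to 1894 CPM in air, and 2 of 10 rose. Of the other lists, 1 of 8 neuron markers fell and 1 of 15 genes of the glucocorticoid list rose. No oligodendrocyte, astrocyte, microglia or choroid plexus marker passed. Their part in the members' changes was not tested.

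**Figure D2:**
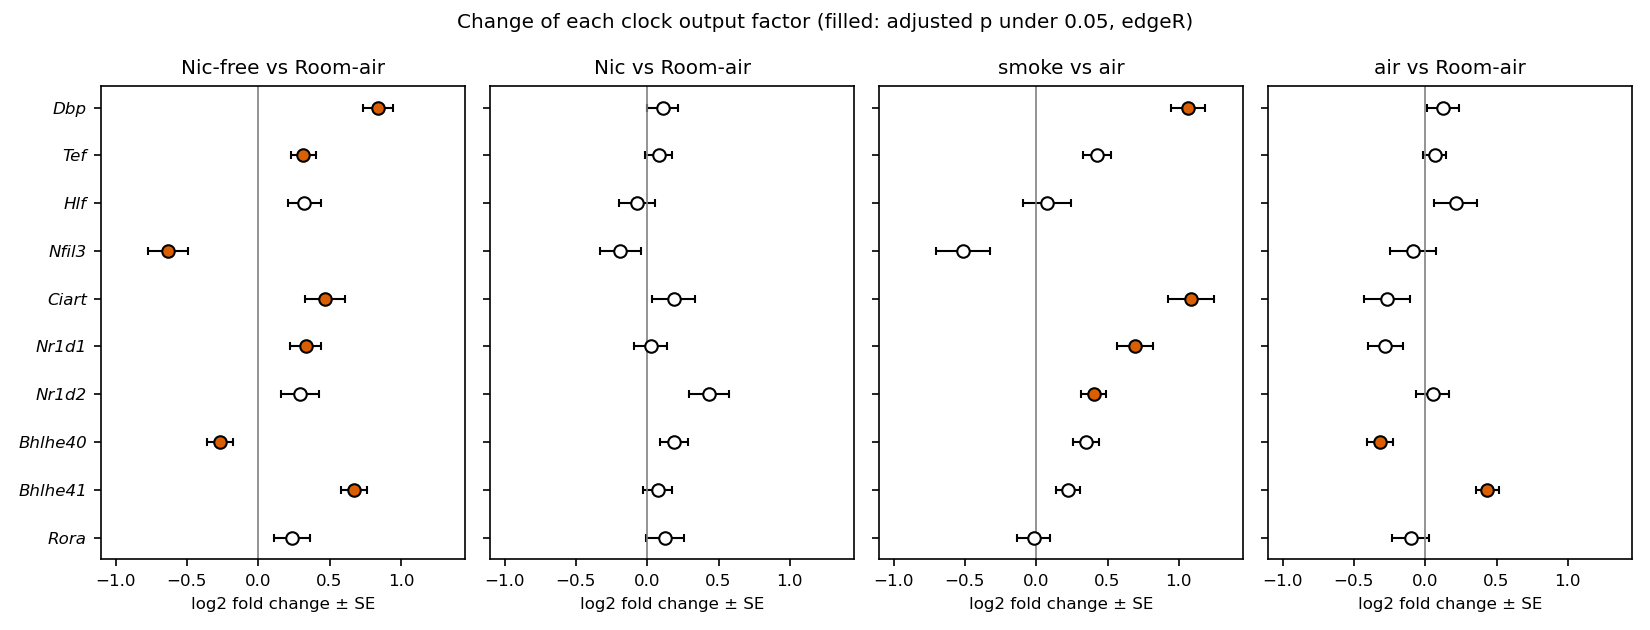
Log2 fold change of each clock output factor with its standard error in 4 comparisons (edgeR); filled points passed at adjusted p under 0.05. Dbp lies at 0.84 in Nic-free vs Room-air and 1.06 in smoke vs air, against 0.11 in Nic vs Room-air and 0.12 between the air sets.

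Whether the smoke effect differed from the vapour effects was tested as a difference of differences over all 19 libraries. The smoke effect (smoke minus air) was larger than the Nic effect (Nic minus Room-air) for 3 of 10 members, where 5.59% of 16557 genes differed (2.78% higher and 2.8% lower). The difference was 0.97 ± 0.17 for Dbp (adjusted p = 0.0106), 0.92 ± 0.23 for Ciart (adjusted p = 0.0315) and 0.68 ± 0.18 for Nr1d1 (adjusted p = 0.0375) on the log2 scale. Dbp passed in all 15 fits that left out 1 library; Ciart did not pass in 5 of them (without Room-air replicate 2, Nic replicates 1 or 2, or air replicates 1 or 3, adjusted p up to 0.099) and Nr1d1 in 7 (without Room-air or Nic replicates 1 or 2, air replicates 1 or 2, or smoke replicate 2, adjusted p up to 0.114). In the core clock the smoke effect was higher than the Nic effect for Per1 (0.96 ± 0.17, adjusted p = 0.0114) and Cry2 (0.40 ± 0.12, adjusted p = 0.0467) and lower for Arntl (-0.80 ± 0.11, adjusted p = 0.00337). Arntl passed in all 15 fits that left out 1 library and Per1 in all but that without Nic replicate 1 (adjusted p = 0.0518). Cry2 passed in 5 of 20 alternatives, and of the 15 that left out 1 library only in the 4 without replicate 3 of Room-air, Nic, air or smoke (adjusted p up to 0.136 otherwise). Of the 8 widely rhythmic genes 4 differed, all with the higher smoke effect, Tspan4 by 1.07 ± 0.23, Wee1 by 0.98 ± 0.26, Pdk4 by 0.85 ± 0.21 and Tsc22d3 by 0.70 ± 0.19. Tspan4 passed in 18 of 20 alternatives, Pdk4 in 15, Tsc22d3 in 8 and Wee1 in 5, with adjusted p up to 0.0763, 0.105, 0.136 and 0.105. Tspan4 did not pass without Nic replicates 1 or 2, nor Pdk4 without either of these, air replicate 1 or smoke replicate 2. Of the fits that left out 1 library, Wee1 passed in 3 (without Room-air replicate 4, Nic replicate 3 or smoke replicate 3) and Tsc22d3 in 5 (without Room-air replicates 2 or 3, Nic replicate 3, air replicate 2 or smoke replicate 3). Against the Nic-free effect, 2 of 10 members differed, a share near that of all genes, 21.5% of 16557 (11.2% higher and 10.3% lower). These were the DEC genes, Bhlhe40 with a higher smoke effect, 0.62 ± 0.13 (adjusted p = 0.00278), and Bhlhe41 with a lower one, -0.45 ± 0.12 (adjusted p = 0.0112), and both passed in all 16 fits that left out 1 library. No difference between the smoke and Nic-free effects passed for Dbp (0.23 ± 0.16, adjusted p = 0.316), Ciart (0.62 ± 0.22, adjusted p = 0.051) or Nr1d1 (0.36 ± 0.18, adjusted p = 0.141), which with these errors does not show that the effects were equal. Ciart passed in 6 of the 16 fits that left out 1 library, with log2 differences of 0.66 to 0.70. Per1 (1.36 ± 0.16, adjusted p = 6.45e-05) and Per2 (1.34 ± 0.18, adjusted p = 0.000129) differed, having fallen in Nic-free against Room-air and risen in smoke against air. Of the further clock lists, the smoke effect was higher than the Nic-free effect for Tsc22d3 (1.71 ± 0.19), Cdkn1a (1.70 ± 0.19), Wee1 (1.48 ± 0.26), Tspan4 (0.79 ± 0.22) and Pdk4 (0.62 ± 0.21), and lower for the kinase gene Gsk3b (-0.55 ± 0.14), Rorb (-0.69 ± 0.17) and Ncor1 (-0.36 ± 0.12). Pdk4 passed in 11 of 21 alternatives (adjusted p up to 0.0812) and Ncor1 in 9 (adjusted p up to 0.101). The smoke effect was also higher than the Nic-free effect for 6 of 10 endothelial markers, 3 of 8 pericyte or smooth muscle markers and 9 of 15 genes of the glucocorticoid list. It was lower for 5 of 6 oligodendrocyte and 5 of 8 neuron markers. The part of these lists in the members' differences was not tested.

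**Figure D3:**
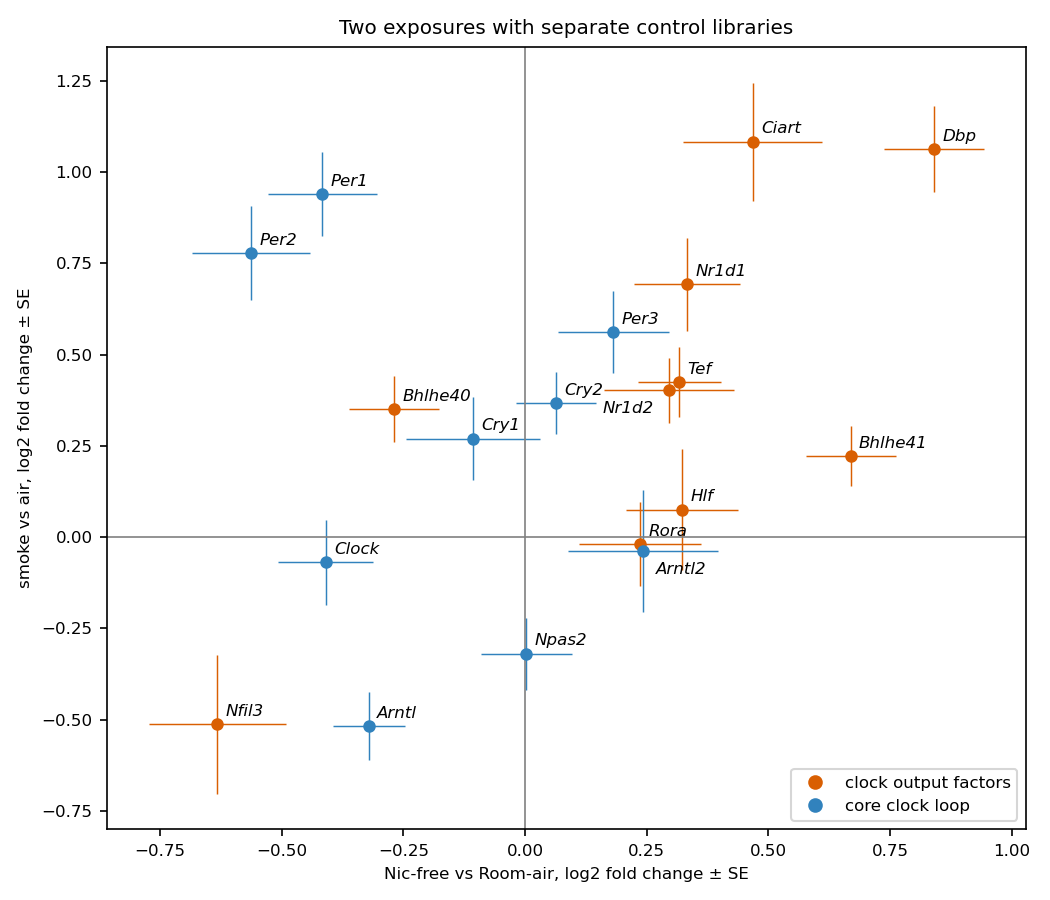
Log2 fold change in Nic-free vs Room-air (horizontal) and in smoke vs air (vertical), with standard errors, for the 10 clock output factors and 9 core clock genes; no library enters both axes. Dbp and Ciart lie far up on the right, whereas Per1 and Per2 lie up on the left, negative in Nic-free and positive in smoke.

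The difference between the 2 control sets bears on each of these contrasts. In air compared with Room-air, 2 of 10 members were called, a share near that of all genes, 22.7% of 16557 (10.7% higher and 12% lower). Bhlhe41 was 60.3 ± 2.28 CPM in air and 45.8 ± 4.16 CPM in Room-air, a log2 fold change of 0.44 ± 0.08 (adjusted p = 0.00135), and Bhlhe40 was 50.5 ± 4.06 CPM in air and 64.5 ± 6.63 CPM in Room-air, a log2 fold change of -0.32 ± 0.09 (adjusted p = 0.0189). Bhlhe40 passed in 5 of the 8 fits that left out 1 library, and not without Room-air replicate 1 or air replicates 3 or 4 (adjusted p up to 0.0561). The 2 DEC genes thus differed between groups that both had the room air label, in the same directions as in Nic-free, a comparison that uses the same Room-air libraries. Dbp (0.12 ± 0.11, adjusted p = 0.451), Ciart (-0.27 ± 0.16, adjusted p = 0.226) and Nr1d1 (-0.28 ± 0.12, adjusted p = 0.108) did not pass, although every air library lay below every Room-air library for Nr1d1. Per1 differed most in the core clock, -1.04 ± 0.12 (adjusted p = 1.84e-05), with 66.1, 89.8, 64.4 and 62.5 CPM in air, against 151, 158, 116 and 169 CPM in Room-air; Per2 (-0.48 ± 0.13, adjusted p = 0.0123) and Arntl (0.32 ± 0.07, adjusted p = 0.00557) passed as well. Of the further clock lists, Csnk1d was lower in air, as were Tspan4, Por, Tsc22d3 (-1.43 ± 0.13), Wee1 (-1.14 ± 0.18) and Cdkn1a (-2.15 ± 0.13). Endothelial markers (6 of 10) and genes of the glucocorticoid list (9 of 15) were lower in air. Oligodendrocyte (3 of 6) and neuron markers (3 of 8) were higher, and the part of these lists was not tested. When the control sets were exchanged, the log2 fold change of Dbp was 0.71 in Nic-free (adjusted p = 0.00245) and 1.18 in smoke (adjusted p = 1.15e-05), Ciart had 0.73 (adjusted p = 0.0147) and 0.81 (adjusted p = 0.00616), and Nr1d1 had 0.60 (adjusted p = 0.0102) and 0.41 (adjusted p = 0.0542). Bhlhe41 in Nic-free then had 0.22 (adjusted p = 0.133) and Bhlhe40 0.04 (adjusted p = 0.872), and Nfil3 -0.56 (adjusted p = 0.0631). Tef in Nic-free had 0.24 (adjusted p = 0.0966). In the core clock in Nic-free, Clock had -0.17 (adjusted p = 0.398) and Per2 -0.09 (adjusted p = 0.734), so neither passed, whereas Arntl had -0.65 (adjusted p = 0.000292). In smoke set against Room-air, Bhlhe41 had 0.65 (adjusted p = 0.000292) and Per1 -0.11 (adjusted p = 0.616). Tef had 0.48 (adjusted p = 0.00317) and Bhlhe40 0.03 (adjusted p = 0.894). Nr1d2 had 0.45 (adjusted p = 0.0287), and Nfil3, which did not pass against air, was lower, -0.61 (adjusted p = 0.0357, edgeR). Hlf (0.28, adjusted p = 0.27) and Rora (-0.13, adjusted p = 0.577) did not pass. Per2 had 0.29 (adjusted p = 0.182) and Arntl -0.21 (adjusted p = 0.0963), so neither passed, and Per3 had 0.39 (adjusted p = 0.0451). Per1 in Nic-free set against air had 0.61 (adjusted p = 0.00596), the opposite sign to its change against Room-air. In Nic set against air, 3 of 10 members passed, where 4961 of 16557 genes did (edgeR). They were Bhlhe40 (0.48, adjusted p = 0.00137), Nr1d2 (0.35, adjusted p = 0.0378) and Bhlhe41 (-0.39, adjusted p = 0.00326). Dbp (-0.04, adjusted p = 0.85), Ciart (0.43, adjusted p = 0.0612) and Nr1d1 (0.28, adjusted p = 0.117) did not pass. Of the core clock in Nic set against air, Per1 (1.01, adjusted p = 3.29e-05), Per2 (0.76, adjusted p = 0.000557) and Clock (0.33, adjusted p = 0.0319) passed (edgeR). Arntl, the core clock gene called against Room-air, did not (-0.04, adjusted p = 0.739), nor did the remaining core clock genes.

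Ratios within a library do not depend on its total count. They compare transcript levels of opposing factors, whose proteins were not measured here. The level of Dbp per kilobase was 11.1 to 16.0 times that of Nfil3 in Nic-free, 4.70 to 7.77 times in Nic and 3.82 to 5.75 times in Room-air, and 12.7 to 23.0 times in smoke and 4.59 to 8.77 times in air. Every Nic-free and smoke library lay above every library of the other groups. Dbp made up 40.6 to 47.4% of the summed Dbp, Tef and Hlf levels per kilobase in Nic-free, 33.3 to 37.8% in Nic and 30.7 to 37.6% in Room-air, and 46.2 to 48.2% in smoke and 31.8 to 40.04% in air. Relative to Arntl, which encodes its activator BMAL1, Dbp in CPM was 3.43 to 4.77 times as high in Nic-free, 1.39 to 1.61 times in Nic and 1.42 to 1.91 times in Room-air, and 3.71 to 5.09 times in smoke and 1.18 to 1.86 times in air. These ratios combine genes already tested and were given no test.

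**Figure D4:**
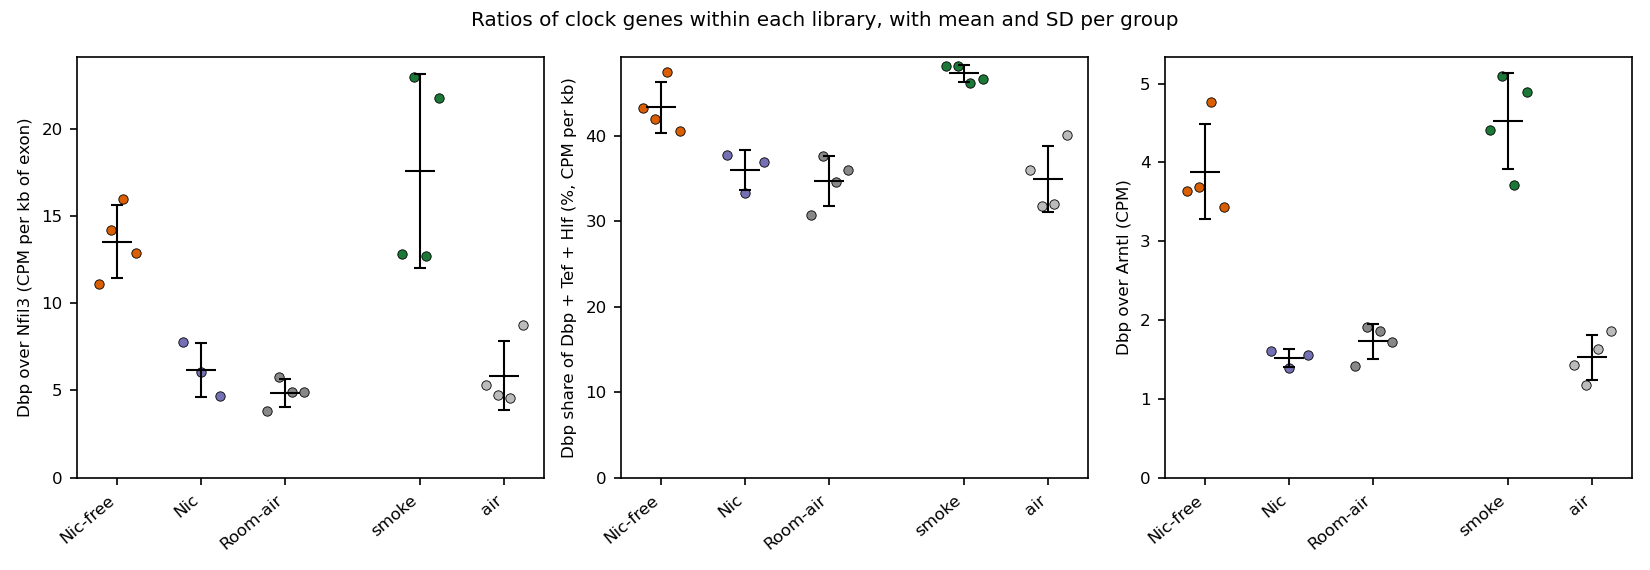
Dbp over Nfil3 (CPM per kb), Dbp as a percentage of the summed Dbp, Tef and Hlf levels (CPM per kb) and Dbp over Arntl (CPM) in each library, with group mean and SD; axes start at 0. Nic-free and smoke libraries lie above the Nic, Room-air and air libraries in all 3 panels.

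Within groups, how the members varied together was described by the correlation of log2 CPM deviations from the group mean over the 19 libraries, which share library and depth effects. Of the 45 pairs of members, 24 had a positive Pearson r. Dbp and Nr1d1 had r = 0.70 (Spearman rho 0.74), Hlf and Rora 0.62, Dbp and Tef 0.46, and Dbp and Ciart 0.25. The REV-ERB genes went opposite ways, Nr1d1 and Nr1d2 having r = -0.62 (rho -0.72), and so did Dbp and Nfil3, with -0.48. Ciart was closest among the core clock genes to Per3 (r = 0.66), and Nr1d1 to Cry2 (0.78). Of 13919 genes with a mean of at least 1 CPM, the 5 named genes most like Dbp were Ssbp4 (r = 0.88), Tnnc1 (troponin C of slow and cardiac muscle, 0.87), Oplah (5-oxoprolinase, 0.86), Fbrsl1 (0.83) and Rasal3 (0.83). For Ciart they were Stag3 (a meiotic cohesin subunit, 0.85), Ppcdc (an enzyme of coenzyme A synthesis, 0.81), Ebf4 (0.79), Tnnt2 (cardiac troponin T, 0.79) and AU022754 (0.78). For Nr1d1 they were Taok2 (a kinase, 0.90), Zfp13 (0.89), Capn12 (a calpain, 0.88), Rexo1 (0.88) and Eif2b4 (a subunit of a translation initiation factor, 0.87). No core clock gene and no other member was among these 15 genes, from which members were left out by rule.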

How the data were processed

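The deposited values are raw counts of reads per Ensembl gene, 1 file for each of the 19 libraries. The tools named in the submitters' processing notes are STAR and HTSeq and the build is mm10, so the authors' counts rest on that alignment. Versions, annotation and the strand setting of the counting are not given in the sources used here. Per the labels' protocols, libraries were single-end, strand-specific reads of 80 nt. The 5 summary lines of each file, reads in no gene among them, stayed out of totals and tests. Reads in no gene were 28.7 to 45.2% of those in a gene, in no gene or ambiguous. Symbols were found for 37607 of 39179 genes, and positions and exon lengths are from GENCODE M21 (GRCm38). Reads opposite to an annotated exon of another gene are uncertain.

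Tests used edgeR 4.0.16 in R 4.3.3 (TMM, filterByExpr, glmQLFit with robust estimation, glmQLFTest, two-sided), adjusted over all genes tested at a threshold of 0.05. Nic-free, Nic and Room-air shared a fit of 11 libraries, smoke and air one of 8, and a fit of all 19 gave air against Room-air and the differences of effects. The scripts were tested on simulated data. Alternatives were DESeq2 1.42.0, RLE size factors, no filter, a replicate block, other sets of libraries in the fit, leaving out each library, and the other control set. Members and gene lists were chosen with earlier results of these data known. All members and core clock genes are named, of the 3 further clock lists those that passed (1 listed gene is not reported here), and the 5 genes most like Dbp, Ciart and Nr1d1. Replicate pairs differed by more than counting noise (chi-square per degree of freedom 8.41 to 60.3), so none was merged. Reads carry no molecular identifiers, so depth gives counting error only.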

Additional observations from a re-analysis of the deposited data

Results flagged for a closer look

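Rora in air replicate 2 was read at 70.0 CPM, apart from the other 3 air libraries at 56.0 to 57.0 CPM, the gap being 0.934 of the group's range. It was the 1 flag among 40 groups of 4 libraries tested, and chance alone flags about 1 in 20 such groups.

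The smoke effect exceeded the Nic effect for Dbp by 0.97 (adjusted p = 0.0106), for Ciart by 0.92 (adjusted p = 0.0315) and for Nr1d1 by 0.68 (adjusted p = 0.0375), on the log2 scale by edgeR's test of the difference. Against the Nic-free effect the smoke effect was higher for Bhlhe40, by 0.62 (adjusted p = 0.00278), and lower for Bhlhe41, at -0.45 (adjusted p = 0.0112). These 2 of 10 members were a share near that of all genes, 21.5%. Each effect was taken against its own set of room air libraries, and Bhlhe40 and Bhlhe41 also differed between those sets.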

How the results depend on the processing

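Limits: with 3 or 4 libraries a group, calls near the threshold moved with single libraries, and depth was lowest in smoke and air. Dbp kept its call in 14 of 14 alternatives in Nic-free, 12 of 12 in Nic against Nic-free, 13 of 14 in smoke and 20 of 20 for the smoke effect minus the Nic effect. Ciart passed in 8 of 14 in Nic-free and 9 of 14 in smoke, and Nr1d1 in 7 and 5. The cause of the moves below was not tested.

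With the other air set as control, 699 genes and 3 members were called in Nic-free (3753 and 7 with Room-air), 4961 genes and 3 members in Nic (670 and 0), and 1027 genes in smoke (244). Signs then turned in Nic-free for Bhlhe40 (0.0352), Npas2 (-0.21), Per1 (0.61), Tsc22d3 (0.18), Wee1 (0.34) and Cdkn1a (0.0399), in Nic for Dbp (-0.0364), Tef (-0.0119), Bhlhe41 (-0.39), Arntl (-0.0403), Npas2 (-0.15), Per1 (1.01) and Cry2 (0.13), and in smoke for Arntl2 (0.10) and Per1 (-0.11). DESeq2 called 1612 genes in Nic, 913 in smoke and 1760 for the smoke effect minus the Nic effect (925 with edgeR). In smoke, 466 genes were called with no filter and 519 with all 19 libraries in 1 fit. With only the groups compared, 351 genes and 1 member were called for the smoke effect minus the Nic effect (925 and 3).

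Deviations of same-numbered libraries from their group means had correlations of -0.40 to 0.44 (36 pairs, 8 over 0.1). They were not set against differently numbered pairs, so whether equal numbers are related was not settled. No label relates equal numbers, and here the numbers are used as names of libraries only. With the replicate block, 5 genes and 1 member, Dbp, were called in smoke.

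Changes near 0 turned sign: Npas2 in Nic-free (-0.0101 with DESeq2, -0.00738 with RLE, -0.0128 with no filter, -8.27e-06 with the replicate block, -0.00401 with only those groups), Cry1 in Nic (-0.00245 with DESeq2, -0.0026 with RLE, -0.0166 with the block, -0.0249 with only those groups), Nr1d1 in Nic (-0.0047 with the block, -0.0107 with only those groups), Per1 in Nic (0.0275 with the block) and Per3 in Nic against Nic-free (-0.00213 with RLE, -0.0018 with only those groups).

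Leaving out each library gave 2186 to 3534 genes and 4 to 6 members in Nic-free, 0 to 2956 genes and 0 to 1 members in Nic (0 genes without Room-air replicate 2), 2401 to 4679 genes and 3 to 6 members in Nic against Nic-free, 1 to 192 genes and 0 to 4 members in smoke, 2415 to 3496 genes and 1 to 2 members between the air sets, 13 to 2476 genes and 1 to 4 members for the smoke effect minus the Nic effect, and 2581 to 4107 genes and 2 to 3 members for the smoke effect minus the Nic-free effect. Changes near 0 that turned sign without some library ranged, in Nic-free, over -0.0448 to 0.0517 for Npas2. In Nic they ranged over -0.113 to 0.0976 for Cry1, -0.0745 to 0.0363 for Cry2, -0.146 to 0.00163 for Hlf, -0.0328 to 0.0988 for Nr1d1 and -0.112 to 0.0675 for Per1, and in Nic against Nic-free over -0.00562 to 0.242 for Cry1 and -0.0733 to 0.134 for Per3. In smoke they ranged over -0.124 to 0.1001 for Arntl2, -0.0726 to 0.197 for Hlf and -0.0898 to 0.0605 for Rora, and between the air sets over -0.139 to 0.00846 for Cry1 and -0.161 to 0.0282 for Nfil3. The smoke effect minus the Nic effect ranged over -0.00896 to 0.273 for Hlf and -0.186 to 0.099 for Nr1d2, and the smoke effect minus the Nic-free effect over -0.0135 to 0.224 for Nfil3.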
